A study of Mus musculus with 7 samples.

Results

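The 10 genes described here encode the non-muscle cytoskeleton of the fetal muscle fiber preparation. They are the cytoplasmic actins Actb and Actg1, the α-tubulins Tuba1a, Tuba1b and Tuba1c, the β-tubulins Tubb2a, Tubb2b, Tubb5 and Tubb6, and the intermediate filament gene Vim. They were taken by gene symbol, all 10 had a row among the 31531 genes measured, and all 10 passed the filter on low values. RNA was sequenced from fibers of the epaxial muscles, which run along the back, of C57BL/6 fetuses at embryonic day 17.5, with 1 library per fetus, 4 of wild-type (WT) and 3 of dyW fetuses. Both genotypes came from crosses of dyW heterozygotes, and the dyW fetuses were homozygous for dyW, a disrupted allele of Lama2 that serves as a mouse model of LAMA2-CMD, the muscular dystrophy caused by loss of the laminin-α2 chain. The allele is carried in every cell of the fetus. Fibers were freed with dispase and collagenase and were kept on a 70-μm strainer, so other cells held on the strainer or attached to fibers could enter a library. The question of the comparison is whether the loss of laminin-α2 goes with other levels of these transcripts in fetal fibers.

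Actin filaments and microtubules are polymers of nearly identical subunits encoded by small gene families. Cytoplasmic β-actin and γ-actin build the cortical network beneath the membrane, to which laminin receptors are anchored through dystrophin and related proteins, whereas the muscle actins Acta1 and Actc1 form the thin filaments of the sarcomere. Tubulin is a dimer of an α-chain and a β-chain. Vimentin forms the intermediate filaments of mesenchymal cells and of myoblasts, and desmin, encoded by Des, takes its place as fibers mature. These genes are read in many cell types besides the fiber, and in bulk RNA a smaller number of cells of a type and less RNA per cell cannot be told apart.

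Each value is a normalized count, the number of uniquely mapped reads on a gene divided by the size factor of its library. Reads on genes ranged from 470804 to 2220813 in WT and from 3663905 to 18297106 in the dyW group, so the dyW libraries were deeper. A single read was worth between 2.05 and 5.33 normalized counts in WT and between 0.0974 and 0.488 in dyW. The targeted gene, Lama2, stood between 90.6 and 111 normalized counts in WT, at 4.29 in dyW1 and at 6.07 in dyW2, but at 139.7 in the library labelled dyW3, above every WT library (exact two-sided permutation test of the group difference, P = 0.286). That library is therefore named by its label throughout. The other library that stood apart was dyW1, in which the 19 muscle fiber markers summed to 79.0 normalized counts with 9 of them at 0, against sums between 3252 and 98181 in WT, 12781 in dyW2 and 9397 in the library labelled dyW3. The defining fiber gene Acta1 was at 4.09 in dyW1, so the label of muscle fiber did not hold by its markers there. Main results are given with and without these libraries.

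With the deposited scaling, the cytoplasmic actins were lower in the dyW group than in WT, and no tubulin and not Vim passed a test. Every WT library was above every dyW library for Actb and for Actg1, with mean levels 4.68 and 5.42 times as high in WT. Such a separation was seen for 31.5% of all tested genes and for 6.81% of those with a mean of at least 50 normalized counts. When libraries were scaled to the same total, the groups overlapped for both actins. Their adjusted P-values in limma were then 0.455 for Actb and 0.279 for Actg1, and in voom 0.435 and 0.320. As deposited, Tubb5 was nearly level between the groups, and Vim was the only 1 of the 10 genes with a log2 fold change above 0. The log2 fold changes of the other tubulins lay below 0 there but turned above 0 with at least 1 other scaling. The 9 negative values compare with 79.6% of all tested genes, and with 44.3% of the 6111 genes that, like all 10 described here, had a mean of at least 50 normalized counts. The thresholds of the study are here its stricter ones, an adjusted P-value under 0.01, in limma, and an absolute log2 fold change over 1.5. By these, 0 of the 10 genes were called lower, where 18.7% of all 25791 tested genes were, and 0 were called higher, where 0.0659% were. At an unadjusted P-value under 0.05 there were 2 lower, where 41.5% of all tested genes were, and 0 higher, where 2.81% were. In limma-voom on the recovered reads, which called 20.6% of all tested genes lower and 0.264% higher, Vim was called higher and no member lower. In simulated data, where 200 genes were changed, 0 of the 200 were called by the thresholds of the study at 4-fold and 159 at 16-fold. With fewer changed genes than were called here the adjustment is stricter, so this does not measure the power for the actins. The counts of 0 do not show that levels were alike. At an adjusted P-value under 0.05, 2 genes were lower, Actb and Actg1, where 29.6% of all tested genes were, and 0 were higher, where 1.01% were. The paper, which fitted DESeq2, also used 0.05 with the same fold change for its gene ontology lists. It lists both actins there as down-regulated. Among the 6111 genes with a mean of at least 50, the shares were 5.09% lower and 4.01% higher at this threshold and 2.45% lower and 0.278% higher by the thresholds of the study. Without dyW1 and without the library labelled dyW3 alike, the count lower was 1, Actg1.

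**Figure D1:**
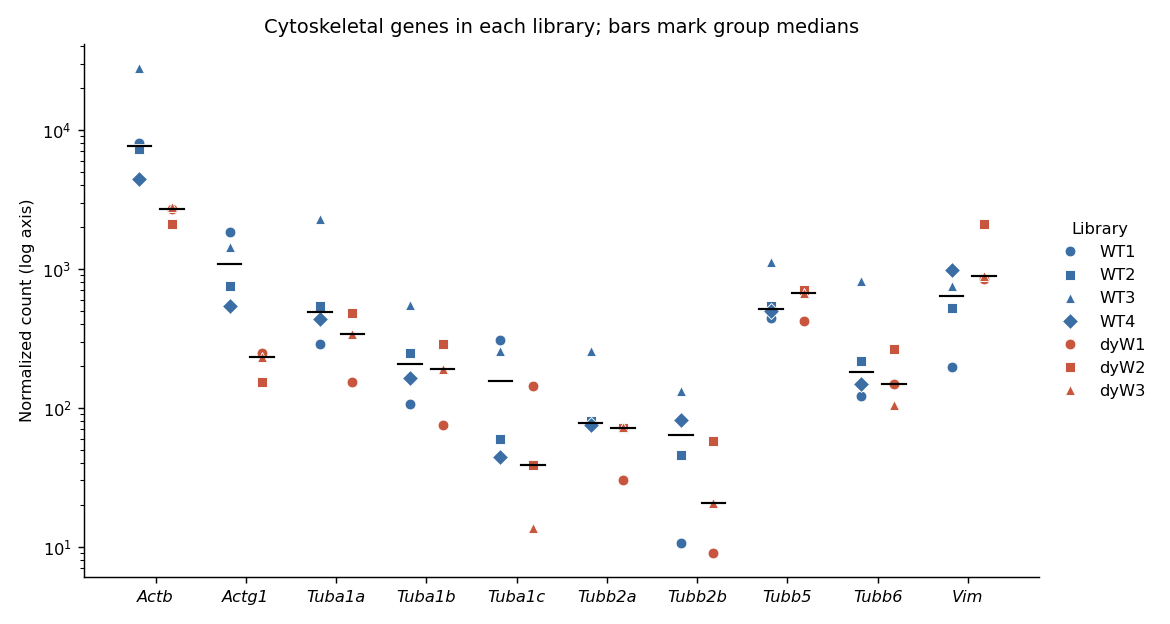
Normalized count of each of the 10 genes in each library on a log axis, WT in blue and dyW in red, with the marker shape giving the replicate number and black bars the group medians. All 3 dyW libraries lie below all 4 WT libraries for Actb and Actg1, WT3 is the highest WT library for 7 genes, and Vim is highest in dyW2.

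Actb, which encodes β-actin, is read from the minus strand of chromosome 5 (GRCm39 positions 142888870 to 142892509, ENSMUSG00000029580). It had the highest level per kb of the 10 genes in every library, and its normalized count was 8039, 7335, 27816 and 4449 in the order WT1 to WT4. In the dyW group it stood at 2718, 2111 and 2803 in the order of replicate number. The dyW libraries were within 1.33 times of each other, whereas the WT libraries spread over 6.25 times, with WT3 far above the rest, and the groups did not overlap. In WT the mean was 11909.8 ± 10717 (SD, n = 4), against 2544 ± 377 (SD, n = 3) in dyW. With the 7 libraries the exact two-sided permutation test cannot go below 0.0571, which is the value it gave for Actb. In limma the log2 fold change was −1.87 (SE 0.57, 95% interval −3.17 to −0.58, adjusted P-value 0.0349). The adjusted P-value ranged from 0.00934 to 0.455 over the settings tried and was 0.0757 without dyW1 and 0.0692 without the library labelled dyW3.

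Actg1, which encodes γ-actin, had the smallest P-value of the 10 genes. It lies on chromosome 11 from 120236512 to 120239617 on the minus strand (ENSMUSG00000062825), where an antisense long noncoding RNA gene overlaps it. Its level in WT1 to WT4 was 1845, 747, 1432 and 541 normalized counts, and in the dyW libraries 248, 154 and 230.5. The lowest WT library was above the highest dyW library, and the WT libraries spread over 3.41 times against 1.61 times in dyW. In WT the mean was 1141 ± 604 (SD, n = 4), against 211 ± 50.03 (SD, n = 3) in dyW (P = 0.0571 by the exact permutation test, the smallest possible). The log2 fold change of Actg1 was −2.30 (SE 0.55, 95% interval −3.54 to −1.05, adjusted P-value 0.0122), and it was the most negative of the 10 genes under all 17 settings, the deposited scaling included. Its adjusted P-value was under 0.05 in 12 of the 17 settings, among them the fits without dyW1 (0.0265) and without the library labelled dyW3 (0.0242), and ranged from 0.00909 to 0.320.

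The size of these differences depends on the scaling. Over all tested genes the log2 fold change had a median of −1.99 as deposited, −1.24 at the same total for every library, −0.15 after quantile normalization, −1.86 with TMM factors and −1.70 in voom. Against the median of all genes, Actb stood at 0.12 and Actg1 at −0.31 with the deposited scaling. Genes with a mean of at least 50 had a median of 0.20 with the deposited scaling and 1.32 at the same total. Relative to the median of these abundant genes, Actg1 lay between −2.85 and −2.43 over the 5 scalings and Actb between −2.15 and −1.26. On the same measure Vim lay between 0.72 and 0.97 and Tubb5 between −0.77 and −0.22, and each of the other tubulins stayed below 0.

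In CPM, a scale that gives every library the same total of reads on genes, the actins no longer separated the groups. Actb stood at 3203, 1842, 6106 and 803 CPM in WT1 to WT4 and at 1942, 912 and 1567 in dyW1 to dyW3, and the groups overlapped. Actg1 stood at 735, 188, 314 and 97.6 CPM in WT and at 177, 66.5 and 129 in dyW, again with overlap. On this scale 0 of the 10 genes had every dyW library below every WT library, where 23.2% of all tested genes and 2.6% of those with a mean of at least 50 did, and 2 had the reverse, Tubb5 and Vim, where 9.08% of all tested genes and 29.6% of those with a mean of at least 50 did.

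**Figure D2:**
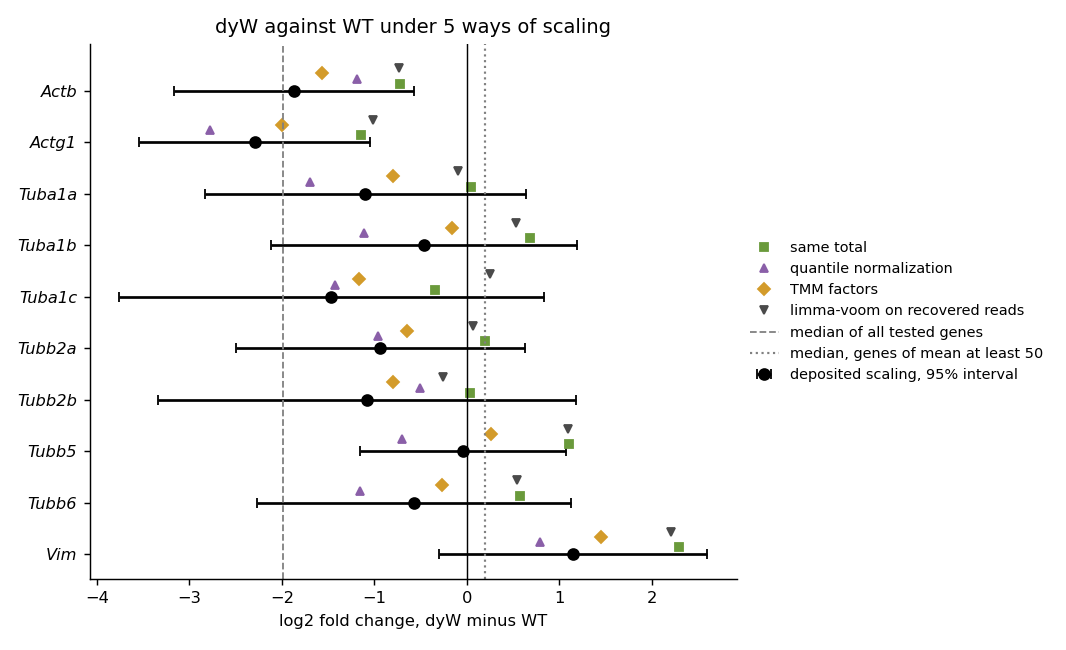
Log2 fold change of the 10 genes, dyW minus WT, with the deposited scaling (black, 95% interval from limma) and with 4 other ways of scaling (colored markers); dashed and dotted lines mark the medians of all tested genes and of genes with a mean of at least 50, with the deposited scaling. Actb and Actg1 lie below 0 and Vim above 0 under all 5 scalings, while the signs of 7 tubulins change with the scaling.

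Because only uniquely mapped reads were counted, a read from a stretch that is the same in another gene could not be assigned. The start of the actin coding sequences is shown because the N terminus is where β-actin and γ-actin differ as proteins. Each line gives the first 60 coding bases on the minus strand of GRCm39, at chr5:142891382-142891441 for Actb and chr11:120238858-120238917 for Actg1, with the bases that differ between the genes in capitals.
Actb: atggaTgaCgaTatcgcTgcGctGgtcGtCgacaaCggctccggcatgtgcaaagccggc
Actg1: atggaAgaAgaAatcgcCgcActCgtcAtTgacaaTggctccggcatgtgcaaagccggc
Of these 60 bases, 9 differ, and over the whole coding sequence the actin genes share 88.7% of bases. Actb and Actg1 shared few stretches of 50 bases with each other, 1.60% and 1.39% of their transcripts, yet 84.9% of the 50-base windows of the Actg1 transcript also occur in a gene elsewhere in the GENCODE M39 annotation, against 14.2% for Actb. The counts of Actg1 are uncertain to that extent. Of the 24 genes elsewhere that share windows with Actg1, only those sharing the most were looked up. Of these copies, 4 had a row. Gm12715, which shares 45.2% of the windows, stood at 5.33, 0, 22.6 and 12.6 normalized counts in WT1 to WT4 and at 0.0974, 0 and 0.488 in dyW1 to dyW3. Gm8399, with 31.5%, stood at 15.99, 2.70, 6.15 and 6.29 in WT and at 0.292, 0.253 and 0.488 in dyW. The other 2 of these 4 copies had more reads in WT. Gm16385 stood at 117, 45.8, 92.3 and 25.2 normalized counts in WT1 to WT4 and at 0.0974, 0.126 and 0.488 in the dyW libraries, where each of these is a single read. Actg-ps1 stood at 112, 16.2, 73.8 and 22.0 in WT and at 0.292, 0 and 1.95 in dyW. Of these 4 copies, 3 were lower in every dyW library than in any WT library, where 31.5% of all tested genes were. Gm8399, 1 of the 3, had a mean under the filter of 5 and so is not among the tested genes. Its value in WT2 is a single read. Gm12715 overlapped, with no read in WT2. The part of the copies in the values of Actg1 was not tested.

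The promoter of Actg1 holds a CArG box, the motif bound by serum response factor (SRF), whose cofactors of the MRTF family bind free actin. It is shown beside that of Acta1, the skeletal muscle actin. Sequences are from RefSeq on GRCm38.p6, in 30 bases each, at chr11:120348566-120348595 for Actg1 and chr8:123894829-123894858 for Acta1, both on the minus strand and with the box in capitals.
Actg1: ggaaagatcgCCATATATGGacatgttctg
Acta1: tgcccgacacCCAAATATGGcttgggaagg
The box begins 90 bases before the start of Actg1 and 73 bases before that of Acta1. Windows of 300 bases were read for 7 of the 10 genes, those other than Actb, Tubb2b and Tubb6, and the box, searched on both strands, was in 1 of the 7. It occurs in 1.63% of the 32851 promoters of the table. Of the 12 genes listed for SRF, its cofactors and its targets, 11 were tested and 0 were called, by limma or by voom. Limma called 18.7% of all tested genes lower and 0.0659% higher. At an unadjusted P-value under 0.05, 3 of the 11 were lower and 0 higher, where 41.5% and 2.81% of all tested genes were. Cnn1, a calponin of smooth muscle, was lower at an adjusted P-value of 0.0243, at 10.3 to 37.8 normalized counts in WT and at 0, 0 and 6.35 in dyW. The highest mean normalized counts of that list were those of the immediate early gene Fos, with a log2 fold change of −0.92 and an adjusted P-value of 0.357, and Cyr61, with −0.49 and 0.768, and for both the sign turned when libraries were scaled to the same total.

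The α-tubulin genes lie close together on chromosome 15, Tuba1b from 98827738 to 98832493 and Tuba1a from 98847714 to 98851589 on the minus strand and Tuba1c from 98927748 to 98936266 on the plus strand. Their coding sequences are 97.1% to 98.3% identical. Between 42.4% and 64.1% of the 50-base windows of the 3 transcripts also occur in a gene elsewhere, and a readthrough gene, Gm49450, overlaps Tuba1a and Tuba1b on the same strand, so reads of the 3 genes could be lost or split.

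Tuba1a, the α-tubulin best known from the developing nervous system, had 288, 542, 2302 and 437 normalized counts in the WT libraries and 154, 483 and 339 in the dyW libraries. WT3 was more than 4 times every other library, and the groups overlapped. Its log2 fold change was −1.10 (SE 0.77, adjusted P-value 0.301). Tuba1b, a widely used α-tubulin, stood at 107, 248, 552 and 164 in WT and at 75.4, 286 and 189 in dyW, with dyW2 above 3 of the 4 WT libraries. Its difference of −0.46 (SE 0.73, adjusted P-value 0.654) was smaller than the spread of the libraries and turned to 0.07 without dyW1. Tuba1c stood at 309, 59.3, 254 and 44.1 in WT and at 144, 38.8 and 13.7 in dyW. Its log2 fold change of −1.47 (SE 1.01, adjusted P-value 0.296) came with the widest spread in dyW of the 10 genes, 10.5 times between dyW1 and the library labelled dyW3.

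The makeup of the α-tubulin transcripts split the libraries by another line than the genotype. Tuba1c made up 41.5% of the summed normalized counts per kb of transcript of the 3 genes in WT1 and 36.9% in dyW1, but between 2.40% and 7.20% in the other 5 libraries. WT1 and dyW1 were also the libraries with the lowest sums of the fiber markers in their groups (3252 and 79.0) and of the red blood cell markers (90.6 and 14.8, against 28845 to 291250 in the others), and their part in the share of Tuba1c was not tested. The ratio of Tuba1a to Tuba1b within a library does not depend on its size factor. It was 1.42, 1.12, 2.06 and 1.41 on the log2 scale in WT1 to WT4 and 1.02, 0.75 and 0.84 in dyW1 to dyW3, lower in every dyW library by a mean of −0.63 (exact two-sided permutation test, P = 0.0571, adjusted over 7 pairs to 0.200). The difference in this ratio kept its sign under all 11 alternatives and ranged from −0.76 to −0.45.

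**Figure D3:**
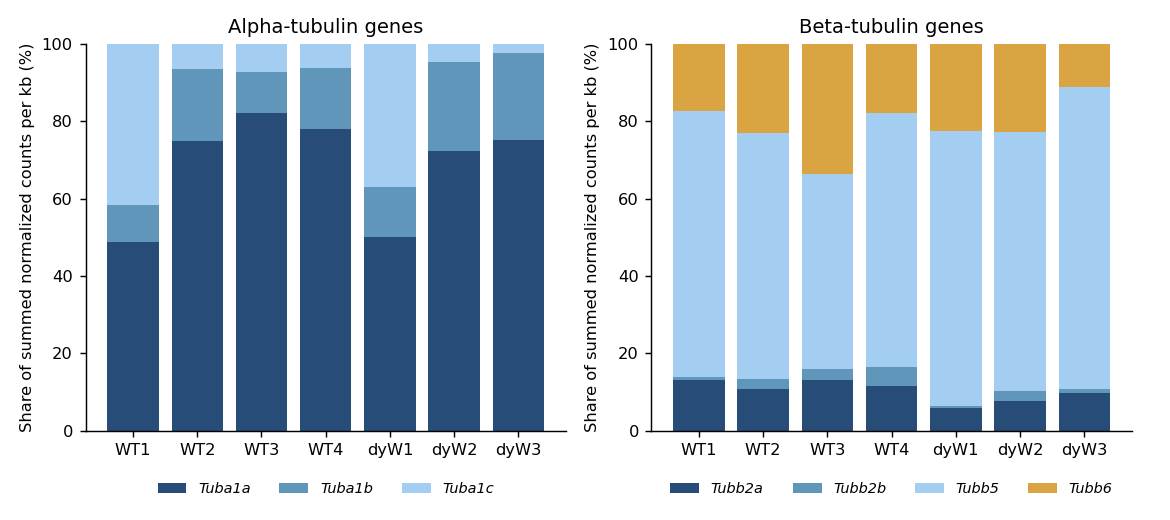
Share of each gene in the summed normalized counts per kb of transcript of the 3 α-tubulin genes (left) and of the 4 β-tubulin genes (right) in each library, as stacked bars in percent. Tuba1c takes 41.5% in WT1 and 36.9% in dyW1 and at most 7.20% elsewhere, and Tubb5 takes the most of the β-tubulins in every library.

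Among the β-tubulins, Tubb2a and Tubb2b are neighbors on chromosome 13, on the minus strand from 34257549 to 34261998 and from 34307245 to 34315143, with coding sequences 96.5% identical. Tubb5 lies on chromosome 17 from 36144809 to 36149198 on the minus strand. The last 60 coding bases of 3 of them are shown because the C-terminal tail is where tubulins differ most as proteins. They lie at chr13:34258451-34258510, chr13:34311454-34311513 and chr17:36145874-36145933, with capitals for the bases in which Tubb2a and Tubb2b differ from each other and Tubb5 from Tubb2a. The coding sequence of Tubb5 has 1335 bases against 1338 for Tubb2a. Its capitals follow an alignment with gaps, which are not marked, so its line is not in register with the others at its start.
Tubb2a: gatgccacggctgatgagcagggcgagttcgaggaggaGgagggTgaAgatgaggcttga
Tubb2b: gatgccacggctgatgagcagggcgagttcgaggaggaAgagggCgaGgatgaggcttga
Tubb5: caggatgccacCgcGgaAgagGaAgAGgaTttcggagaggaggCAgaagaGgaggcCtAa
Tubb2a and Tubb2b differ by 3 bases there, and 34.0% and 14.6% of the 50-base windows of their transcripts occur in a gene elsewhere. For Tubb5 the share was 0.230%, and for Tubb6 and Vim it was 0%, so sharing of reads by near-identical copies bears least on these.

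Tubb5, the β-tubulin of most dividing cells, had the highest level per kb of the β-tubulins in all 7 libraries and was the gene with the smallest difference. It stood at 442, 539, 1116 and 494 normalized counts in WT1 to WT4 and at 421, 709 and 669.5 in dyW1 to dyW3, with WT3 the highest and dyW1 the lowest. The log2 fold change of Tubb5 was −0.04 (SE 0.49, 95% interval −1.15 to 1.07, adjusted P-value 0.954). This interval allows a change of more than 2 times in either direction, and the value was 1.11 at the same total and 1.09 in voom, where its adjusted P-values were 0.140 and 0.174. Flot1 overlaps Tubb5 on the other strand, and the strand setting of the counting is not given in the sources used here.

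Tubb6, on the plus strand of chromosome 18 from 67523585 to 67536773, stood at 123, 216, 816 and 148 in WT and at 148, 263 and 105 in dyW, so WT3 alone was outside the range of the dyW libraries on the upper side. Its log2 fold change was −0.57 (SE 0.75, adjusted P-value 0.589), and 0.02 without WT3. Tubb2a stood at 74.6, 80.9, 256 and 75.5 in WT and at 30.2, 71.3 and 72.3 in dyW. The groups did not overlap (P = 0.0571 by the exact permutation test on normalized counts), but the gap between WT1 and the library labelled dyW3 was smaller than the value of a single read in WT1. Its log2 fold change was −0.94 (SE 0.69, adjusted P-value 0.326). With Actb and Actg1, 3 of the 10 genes had every dyW library below every WT library, where 31.5% of all tested genes and 6.81% of those with a mean of at least 50 did, and 0 had the reverse, where 3.28% and 12.2% did. Tubb2b, the β-tubulin known from developing neurons, had the lowest mean level per kb, and stood at 10.7, 45.8, 131 and 81.8 in WT and at 9.06, 58.1 and 20.5 in dyW, with a log2 fold change of −1.08 (SE 0.995, adjusted P-value 0.434).

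Within the β-tubulins, Tubb2a made up 13.2%, 10.9%, 13.2% and 11.4% of the summed normalized counts per kb in WT1 to WT4 and 5.80%, 7.70% and 9.61% in dyW1 to dyW3. All dyW shares were below all WT shares, at 12.2 ± 1.21% (SD, n = 4) and 7.70 ± 1.91% (SD, n = 3). The share of Tubb5 overlapped, at 62.1 ± 8.04% in WT and 72.0 ± 5.59% in dyW. The ratio of Tubb2b to Tubb5 differed by −1.04 on the log2 scale (exact two-sided permutation test, P = 0.229, adjusted 0.514) and that of Tubb6 to Tubb5 by −0.53 (P = 0.457 by the same exact test, adjusted 0.514), both within the spread of the libraries. For scale, a background level was taken from 1330 odorant and vomeronasal receptor genes, as their median of reads per kb. In WT 1040 to 1300 of these genes had a read and the median was 0.640 to 2.515 reads per kb, whereas in the deeper dyW libraries 208, 128 and 755 had a read and the median was 0, 0 and 1.38. In WT, Tubb2b held 0.507 to 5.84 times that level and Tuba1c 2.88 to 35.1 times, whereas Actb held 257.5 to 2608 times. With this level subtracted, the difference in the ratio of Tubb2b to Tubb5 turned to 0.78.

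Vim lies on chromosome 2 from 13578738 to 13587639 on the plus strand (ENSMUSG00000026728). Its normalized counts were 197, 520.5, 749 and 985 in the WT libraries and 848, 2095 and 886 in dyW1 to dyW3. Only WT4 reached into the range of the dyW group. In WT the mean was 613 ± 336 (SD, n = 4), against 1277 ± 709 (SD, n = 3) in dyW, 2.08 times as high, with an exact two-sided permutation P-value of 0.171. The log2 fold change of Vim was 1.15 (SE 0.64, 95% interval −0.30 to 2.60, adjusted P-value 0.201). It was above 0 and the highest of the 10 genes under all 17 settings, with values from 0.68 to 2.30 and adjusted P-values from 0.00844 to 0.619. At the same total it was 2.30 (adjusted P-value 0.0137), and in voom 2.21 (adjusted P-value 0.00844). In CPM it stood at 78.6, 131, 164 and 178 in WT and at 606, 905.5 and 495 in dyW, with no overlap.

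Vim and desmin were compared within each library. Des, the intermediate filament gene of mature muscle, stood at 21.3, 111, 156 and 151 in WT and at 0, 111 and 85.5 in dyW. The log2 ratio of Vim to Des was 3.15, 2.22, 2.26 and 2.70 in WT1 to WT4 and 9.73, 4.23 and 3.36 in dyW1 to dyW3, higher in every dyW library by a mean of 3.19 (exact two-sided permutation test, P = 0.0571, adjusted over 7 pairs to 0.200). The value of dyW1 rests on a count of 0 for Des, and without dyW1 the mean difference was 1.21. With the background of receptor genes subtracted as above, it was 2.46 and the groups overlapped (P = 0.343 by the exact permutation test). Markers of fibroblasts, a cell type that expresses Vim, were higher in sum in the dyW group. Their sum over 10 genes was 6062 to 15389 normalized counts in WT and 26635 to 33862 in dyW. Within WT the order differed from that of Vim, with a sum of 8279 in WT4, where Vim was highest, against 9797 in WT2 and 15389 in WT3. Col1a2 and Pdgfra, a collagen and a growth factor receptor of these cells, were higher at adjusted P-values of 0.0157 and 0.0286 in limma. By the thresholds of the study 0 of the 10 markers were called, where 18.7% of all tested genes were called lower and 0.0659% higher. Osr1, a transcription factor of connective tissue cells, went the other way, from 10.7 to 72.8 in WT to 0, 5.94 and 10.3 in dyW (log2 fold change −2.56, adjusted P-value 0.0912 in limma). The sum of 9 endothelial markers was also higher in every dyW library, at 870 to 1818 normalized counts against 698 to 856 in WT. Of these 9, 7 had a positive log2 fold change, 2 a negative one, and 0 were called. A positive value was seen for 20.4% of all tested genes and 55.7% of those with a mean of at least 50. The part of either cell type in the level of Vim was not tested.

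The cytoplasmic actins were set against Acta1 in the same way. Acta1 stood at 1973, 10199, 52989 and 5846 normalized counts in WT and at 4.09, 3667 and 1807 in dyW, with an adjusted P-value of 0.113. The log2 ratio of Actb to Acta1 was 2.03, −0.48, −0.93 and −0.39 in WT1 to WT4 and 9.06, −0.80 and 0.63 in dyW1 to dyW3. The libraries of both groups overlapped (P = 0.457 by the exact permutation test), and the mean difference of 2.91 rested on dyW1 and was −0.14 without it. The ratio of Actg1 to Acta1 had a difference of 2.49 (exact two-sided permutation test, P = 0.514) that was −0.64 without dyW1. The ratio of Actg1 to Actb, −3.18 ± 0.89 in WT (SD, n = 4) and −3.61 ± 0.16 in dyW (SD, n = 3), differed by −0.42 (exact two-sided permutation test, P = 0.514).

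Of 3 further ratios, chosen after the values had been seen and given without a test, Vim to Actb was between −5.34 and −2.17 on the log2 scale in WT and between −1.68 and −0.01 in dyW. Vim to Actg1 was between −3.22 and 0.86 in WT and between 1.77 and 3.76 in dyW. Tubb5 to Actg1 was between −2.06 and −0.13 in WT and between 0.76 and 2.20 in dyW. The groups did not overlap in any of the 3 ratios, which carry no size factor, and the mean differences of 3.02, 3.44 and 2.25 were 1.82 or more when each library in turn was left out.

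**Figure D4:**
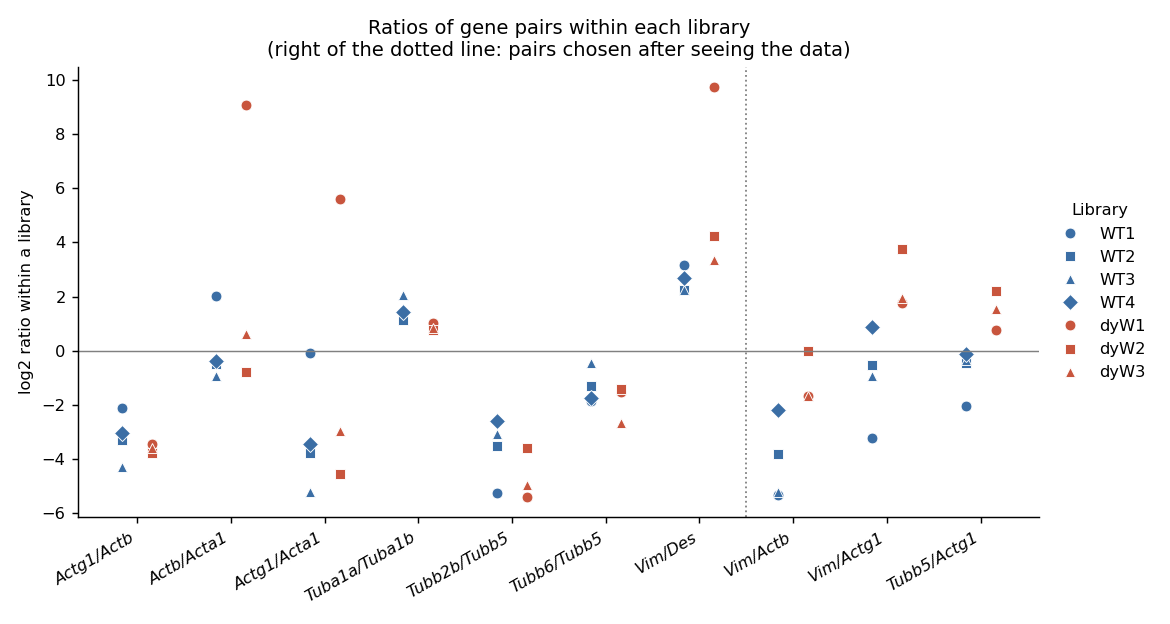
Log2 ratio of the normalized counts of 10 gene pairs within each library, WT in blue and dyW in red, with the marker shape giving the replicate number. The groups do not overlap for Tuba1a/Tuba1b, Vim/Des and the 3 pairs to the right of the dotted line, and dyW1 lies far above the rest in the 3 pairs with a muscle gene in the denominator.

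The order of the transcripts was compared on normalized counts per kb of the canonical transcript, so that genes of unequal length can be set side by side. In WT it ran Actb (6203), Actg1 (518), Tuba1a (493), Vim (279), Tubb5 (244), Tubb6 (112), Tuba1b (79.7), Tuba1c (73.1), Tubb2a (52.4) and Tubb2b (11.6). In dyW it ran Actb (1325), Vim (582), Tubb5 (226), Tuba1a (180.0), Actg1 (95.7), Tubb6 (59.1), Tuba1b (54.7), Tuba1c (28.6), Tubb2a (24.9) and Tubb2b (5.04). Only the first and the last steps in WT, Actb over Actg1 and Tubb2a over Tubb2b, had ranges over the libraries that did not overlap. In dyW the same held for Actb over Vim, Vim over Tubb5 and Tubb2a over Tubb2b, and the ranges of all other neighbors overlapped. Within libraries, however, Tubb5 was above Tubb6 and Tubb6 above Tuba1b in 4 of 4 WT libraries, and Tubb5 was above Tuba1a in 3 of 3 dyW libraries.

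Across the 7 libraries, on log2(normalized count + 1), Tuba1a went with Tubb2a (Pearson r = 0.967) and with Tuba1b (0.940), and Actb with Actg1 (0.874), while Actg1 and Vim ran against each other (−0.803). These correlations describe 7 libraries that share a size factor for all genes and include both genotypes. Among the genes of a mean of at least 50 whose pattern was most like that of Actg1 were Itih5l-ps (0.972), the cartilage gene Ucma (0.967), a gene without a symbol, ENSMUSG00000116995 (0.967), and Txndc5 (0.953). Ucma stood at 3236, 21.6, 1438 and 62.9 normalized counts in WT1 to WT4 and at most at 1.95 in the dyW libraries.

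The other genes of the actin, microtubule and intermediate filament systems were read from 8 lists with 123 tested genes. Of these, 4 were called lower, against 18.7% of all tested genes, 3 of 4 at 0 in every dyW library, and 1 was called higher, against 0.0659%. At an adjusted P-value under 0.05, 8 were lower and 5 higher, against 29.6% and 1.01%. The signs were read against genes of the same level. Of the 37 tested genes with a mean under 50, 33 had a negative log2 fold change, where 90.5% of all such genes did, and 8 were lower at an adjusted P-value under 0.05, where 37.2% were. Of the 86 with a mean of at least 50, 57 had a positive one, where 55.7% of all such genes did. At an adjusted P-value under 0.05, 5 of the 86 were higher and 0 lower, where 4.01% and 5.09% of all such genes were.

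Among the other tubulins, all 9 tested genes had a negative log2 fold change with the deposited scaling (median −2.49, against −1.99 for all tested genes). Negative values were seen for 79.6% of all tested genes, 90.5% of those with a mean under 50 and 44.3% of those with at least 50. Of the 9, 2 were called lower, where 18.7% of all tested genes were. Tube1, ε-tubulin of the centriole, stood at 26.7 to 72.4 normalized counts in WT and at 0, 1.77 and 0.488 in dyW (log2 fold change −4.89, adjusted P-value 0.00372). Tubb4a, a β-tubulin of the nervous system, stood at 13.5 to 25.2 in WT and at 0 in every dyW library. It was at least 24.2-fold below the WT mean when 3 reads are taken as the limit of a count of 0 in each dyW library. This takes the WT mean as exact, with no allowance for its own counting error or for background. The WT level of Tubb4a was 0.889 to 2.10 times, and that of Tube1 0.974 to 1.54 times, the level of the receptor genes, a level that was itself at 0 in dyW1 and dyW2, and its part in these calls was not tested. Tubb4b, with the highest mean normalized count of the list, stood at 135 to 398 in WT and 38.7 to 193 in dyW (log2 fold change −1.08, adjusted P-value 0.271), and its sign turned at the same total. Tuba4a, an α-tubulin found in mature muscle, stood at 37.3 to 293 in WT and at 0, 62.9 and 14.2 in dyW (log2 fold change −3.14, adjusted P-value 0.110).

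Of the 13 other intermediate filament, lamin and plectin genes, all had a negative log2 fold change with the deposited scaling (median −1.62). The same was seen for 79.6% of all tested genes, 90.5% of those with a mean under 50 and 44.3% of those with at least 50. Of the 13, 2 were called lower, where 18.7% of all tested genes were. These were the neuronal filament genes Nefl and Ina. Both were at 0 in every dyW library, at least 21.8-fold and 22.8-fold below the WT mean, again taken as exact. In WT they held 0.657 to 1.37 and 0.340 to 2.36 times the level of the receptor genes, which was at 0 in dyW1 and dyW2. Nefm was lower at an adjusted P-value of 0.0175 with the deposited scaling, and its sign turned after quantile normalization. Lmna, lamin A and C of the nuclear envelope, had the highest mean normalized count, at 151 to 554 in WT and 87.6 to 727 in dyW (log2 fold change −0.47, adjusted P-value 0.692), and its sign turned at the same total and in voom. Plec, the plectin that ties filaments to membranes, came next, with a log2 fold change of −1.18 and an adjusted P-value of 0.519. Sums of 10 neural markers ranged from 279 to 431 in WT and from 44.4 to 782 in dyW, with 7 of the 10 at 0 in dyW1, 5 in dyW2 and 3 in the library labelled dyW3, and their part in the calls of Nefl, Ina and Tubb4a was not tested.

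Genes of actin turnover contained the 1 gene called higher. Twf1, twinfilin, which binds actin monomers, stood at 48.0, 32.4, 26.7 and 34.6 normalized counts in WT1 to WT4 and at 165, 213 and 181 in dyW1 to dyW3. Every dyW library was more than 3 times every WT library (log2 fold change 2.39, SE 0.54, adjusted P-value 0.00971), and the adjusted P-value ranged from 0.00584 to 0.131 over the settings. Capza2, a subunit of the protein that caps actin filaments, rose as well, from 42.6 to 379 in WT to 713 to 1083 in dyW (log2 fold change 2.72, adjusted P-value 0.0190). Of the 26 genes of the list 18 had a positive log2 fold change (median 0.51). A positive value was seen for 20.4% of all tested genes and 55.7% of those with a mean of at least 50 (medians −1.99 and 0.20). The genes with its highest mean normalized counts, the monomer-binding thymosins Tmsb4x and Tmsb10, had log2 fold changes of 0.03 and −0.52 with adjusted P-values of 0.992 and 0.805, and the signs of both changed between settings.

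In the list of actin-binding proteins 0 of 17 genes were called by limma or by voom. Of all tested genes, limma called 18.7% lower and 0.0659% higher, and voom 20.6% and 0.264%. At an unadjusted P-value under 0.05, 0 of the 17 were lower and 2 higher, where 41.5% and 2.81% of all tested genes were. The 2 genes, which also passed an adjusted P-value under 0.05, were Msn and Rdx, moesin and radixin, which link actin to the membrane. Msn stood at 69.3 to 191 in WT and 268 to 738 in dyW (log2 fold change 1.93, adjusted P-value 0.0402), and Rdx at 80.0 to 197 in WT and 239 to 546 in dyW (log2 fold change 1.69, adjusted P-value 0.0491). The highest mean normalized counts were those of Tpm4, a non-muscle tropomyosin, and Myl12a, a light chain of non-muscle myosin, with adjusted P-values of 0.148 and 0.803. Of 22 tested microtubule-associated proteins and motors 0 were called by limma or by voom. At an unadjusted P-value under 0.05, 2 were lower and 3 higher, again beside 41.5% and 2.81% of all tested genes. Map7 was lower (log2 fold change −3.51, adjusted P-value 0.0215) at a WT level of at most 0.431 times that of the receptor genes, and Dync1i2, a chain of cytoplasmic dynein, was higher, from 88.2 to 101 in WT to 183 to 467 in dyW (log2 fold change 1.78, adjusted P-value 0.0331). Those with the highest mean normalized counts, Mapre1 and the kinesin Kif5b, had log2 fold changes of 0.96 and 1.28 with adjusted P-values of 0.377 and 0.101.

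The chaperones of actin and tubulin folding, CCT, prefoldin and the tubulin cofactors, had 21 tested genes. None was called by limma or by voom. At an unadjusted P-value under 0.05, 0 were lower and 4 higher, where 41.5% and 2.81% of all tested genes were. The log2 fold changes of the list were positive for 18 of 21, where 20.4% of all tested genes and 55.7% of those with a mean of at least 50 had a positive value. The median of the list was 1.03 with the deposited scaling, where that of genes with a mean of at least 50 was 0.20, and it was 0.76 after quantile normalization, 2.17 at the same total and 2.05 in voom. Those with the highest mean normalized counts, the CCT subunits Cct7 and Cct8, had log2 fold changes of 0.27 and 1.505 with adjusted P-values of 0.863 and 0.115, and the sign of Cct7 turned after quantile normalization and without dyW2. Of the 4 muscle actins 0 were called by limma or by voom, and 1 was lower at an unadjusted P-value under 0.05, where 41.5% of all tested genes were. This was Actg2, the enteric smooth muscle actin, which also passed an adjusted P-value under 0.05 (0.0420) at 5.33 to 80.0 normalized counts in WT and 0, 0 and 4.40 in dyW. Actc1, the cardiac actin made by fetal skeletal muscle, had a log2 fold change of −4.17 with an adjusted P-value of 0.238, at 352 to 16808 in WT and 0, 1391 and 2537 in dyW.

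**Figure D5:**
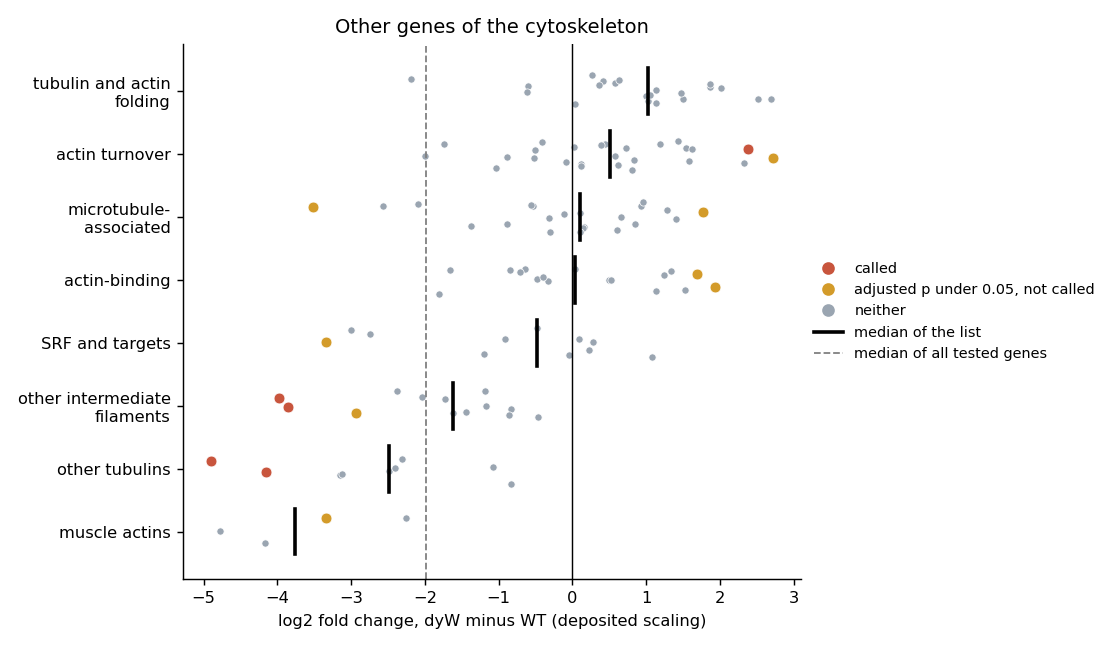
Log2 fold change, dyW minus WT with the deposited scaling, of each tested gene in 8 lists of cytoskeletal genes; points are colored by call, black bars are list medians and the dashed line is the median of all tested genes. The other tubulins and other intermediate filaments lie wholly below 0, and the 2 genes that lie highest among those past an adjusted P-value of 0.05 are Capza2 and Twf1.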

How the data were processed

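RNA from 7 libraries, each of a different fetus, was prepared by SMART-seq2, which amplifies full-length cDNA by PCR without molecular identifiers, and Nextera XT. The authors used Cutadapt for trimming and RNA STAR for alignment to GRCm39, assigned uniquely mapped reads with FeatureCounts and deposited counts divided by DESeq2 size factors (other: normalized counts). Tool versions, annotation release and strand setting are not given in the sources used here. A table of the authors' own fold changes and P-values was not used. Whole reads were recovered from the step of each library (100% of values within 0.05 reads). Groups follow the sample titles. Genes with a mean of at least 5 were fitted with limma 3.58.1 (R 4.3.3, eBayes with trend, no covariates) on log2(normalized count + 1), with Benjamini-Hochberg adjustment over 25791 genes, a scale that understates changes of low genes. For ratios within a library the test was an exact permutation over 35 splits, two-sided as throughout. Limits for a count of 0 (3 reads) cover the counting error of the dyW libraries only and take the WT mean as exact. Counting error is largest in the shallower WT libraries. The members, lists and tests were chosen with earlier results of these data known. Named are the 10 genes, Lama2, both genes of each pair, up to 4 genes of each list past a threshold by smallest P-value, the 2 genes of each list with the highest mean, and the 5 genes most like Actg1, of which 1 is not reported here. Marker genes, Tuba4a, Actc1, the copies of Actg1 and 3 ratios were named after their values were seen. Positions are from GENCODE M39 (99.2% of 31531 genes matched). The fit was tested on simulated data. Scripts ran in Python 3.11.15 with Biopython 1.88, matplotlib 3.10.9, numpy 2.4.6, scipy 1.17.1 and pandas 2.3.3. Settings tried besides were scaling to the same total, no filter or a mean of at least 50, pseudocounts of 0.1 and 10, quantile normalization, TMM factors, voom on recovered reads, a replicate block, each library left out, and an adjusted P-value under 0.05.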

Additional observations from a re-analysis of the deposited data

Results flagged for a closer look

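Within the 4 WT libraries, WT3 stood apart from the others for 5 of the 10 genes by Dixon's test, in which the gap to the nearest library is more than 0.829 of the whole range. These were Actb at 27816 normalized counts, Tuba1a at 2302, Tubb2a at 256, Tubb5 at 1116 and Tubb6 at 816. The gap was 0.846 of the range for Actb, 0.874 for Tuba1a, 0.966 for Tubb2a, 0.856 for Tubb5 and 0.866 for Tubb6. Of 21 groups examined, 5 were flagged, all in WT3. Chance flags about 1 in 20 groups of independent values. These 5 genes share a library and its size factor, so their count cannot be set against that rate. WT3 also had the highest sum of muscle fiber markers, 98181 normalized counts against 3252 to 27201 in the other WT libraries, and the part of this difference in the levels of the 5 genes was not tested. Without WT3 the log2 fold change was −1.34 for Actb (adjusted P-value 0.00934, over a range of 0.00934 to 0.455), −0.48 for Tuba1a, −0.51 for Tubb2a, 0.25 for Tubb5 and 0.02 for Tubb6.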

How the results depend on the processing

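The values of the 10 genes changed with the scaling. The planned fits by edgeR and DESeq2 were not run, and voom was run on the recovered reads. At the same total, the log2 fold changes of Tuba1a (0.048), Tuba1b (0.68), Tubb2a (0.20), Tubb2b (0.029), Tubb5 (1.11), Tubb6 (0.57), Tubb4b (0.063), Tmsb10 (0.63), Lmna (0.68), Fos (0.23) and Cyr61 (0.66) turned above 0. In voom the same was seen for Tuba1b (0.53), Tuba1c (0.24), Tubb2a (0.06), Tubb5 (1.09), Tubb6 (0.54), Tmsb10 (0.18), Lmna (0.97), Fos (0.50) and Cyr61 (1.27). The sign also turned for Tubb5 with TMM factors (0.26), for Cct7 (−0.25) and Nefm (0.37) after quantile normalization, for Tmsb4x with a pseudocount of 10 (−0.053), and for the ratio of Tubb2b to Tubb5 with the receptor level subtracted (0.78). None of these genes was called in the fit reported or in these, and the cause was not tested.

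With each library left out in turn, log2 fold changes crossed 0 for Tuba1b (−0.88 to 0.073), Tubb5 (−0.19 to 0.25), Tubb6 (−0.93 to 0.023), Des (−3.24 to 0.16), Cct7 (−0.89 to 1.01), Tmsb10 (−1.92 to 0.22), Tmsb4x (−1.83 to 1.02), Myl12a (−0.59 to 1.56), Plec (−2.49 to 0.60), Lmna (−1.36 to 0.15) and Cyr61 (−1.504 to 0.42), and the ratios to Acta1 for Actb (−0.14 to 4.79) and Actg1 (−0.64 to 4.45). The log2 fold change of Lama2 was −4.09 to −1.72 with each library left out and was −4.09 (adjusted P-value 0.00202 in limma, over a range of 0.00202 to 0.366) without the library labelled dyW3. Of the 10 genes, 0 were called lower, 1 with a pseudocount of 0.1 and 2 at an adjusted P-value under 0.05, and 0 were called higher, 1 in voom. Of the other lists, 4 genes were called lower, against 0 with a pseudocount of 10, the same total, quantile normalization or the replicate block. The count was 8 at an adjusted P-value under 0.05. With each library left out it ranged from 0 to 9 (0 without WT2, WT4 or dyW2 and 9 without the library labelled dyW3). It was also 0 with a mean of at least 50, but all 4 had a mean under 50 and were not tested there. At the same total Tube1, Tubb4a and Nefl shared an adjusted P-value of 0.01345 in limma, above the threshold of 0.01. The shares of all tested genes called in these other fits are not given here. The 1 gene of these lists called higher was lost (0) with a pseudocount of 10, no filter, a mean of at least 50, the same total, quantile normalization or the replicate block. The count higher became 5 at an adjusted P-value under 0.05. It ranged from 0 to 1 with each library left out (0 without WT1, WT2, WT4 or any 1 of the dyW libraries), and the cause was not tested.

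Libraries with the same replicate number did not deviate together (correlations of 0.147, −0.0494 and −0.0880), and they share only a number. With the replicate block WT4, which has no partner, adds nothing. The values were −2.22 for Actb and −2.60 for Actg1 (both adjusted P-values 0.061 in limma). Of the 10 genes 0 passed an adjusted P-value under 0.05. Tube1, Tubb4a, Nefl and Ina, called lower in the fit reported, also had 0.061 there, so this 0 does not set the 10 genes apart. The share of all tested genes under 0.05 in that fit is not given here. The depth of the WT libraries, 470804 to 2220813 reads on genes, limits what low genes such as Tubb2b can show.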
